A study of Rattus norvegicus with 6 samples.

Results

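Semaphorins are secreted or membrane-bound guidance proteins that steer growing axons, migrating neurons and blood vessels, and plexins are their signalling receptors. The genes described here are the semaphorins of classes 3 to 7, the plexins of classes A to D, and the neuropilins Nrp1 and Nrp2. They were taken from the gene tables by symbol (Sema followed by a number, Plxna, Plxnb, Plxnc, Plxnd, Nrp1 or Nrp2), which gave 31 of the 30498 genes listed. The study compared brains of newborn rats (Rattus norvegicus) whose dams were fed fewer calories (caloric restriction, CR), which models fetal growth restriction, with brains of newborns of control dams. Pups of both groups were born by Caesarean section, and their brains were taken at once. Each group had 3 libraries of polyadenylated RNA, labelled as whole brain, and the labels give no strain, sex, degree of restriction or litter. Whether the 3 libraries of each group stem from different animals is not stated, so the p-values below measure only the spread between these libraries, which may be technical.

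A plexin is a single-pass receptor whose intracellular part switches off Rap GTPases and so loosens adhesion and the cytoskeleton of a growth cone. Class 3 semaphorins are secreted, and most of them reach a class A plexin only through a neuropilin, which binds the ligand but barely signals by itself. Classes 4 to 6 span the membrane and class 7 carries a lipid anchor, and these bind plexins directly. In the developing brain this system shapes cortical layering, the corpus callosum, thalamic and spinal tracts and the pruning of early axons.

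Values are the deposited FPKM, in which reads are scaled by exon length and by the library's assigned reads. Depth ranged from 14030961 to 25734737 assigned reads per library. Tests used limma on log2(FPKM + 1) for genes that averaged 0.5 FPKM or more over the libraries, with Benjamini-Hochberg adjustment over all 15247 genes tested and a threshold of 0.05. A log2 fold change is the CR mean minus the control mean of these logged values, so changes of low genes come out too small, and means are given ± SD with n = 3 per group.

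The receptor gene Plxna2 fell, and Sema7a, a membrane-anchored ligand of Plxnc1, also fell. The ligands Sema6a and Sema6d rose together. For these genes the start regions are shown as the stretch of DNA that each gene's transcription begins in. They are RefSeq sequences on GRCr8, from 250 bases before to 50 bases after the annotated start, 5′ to 3′ on the gene's strand, and are at chr13:108691280-108691579 (plus) for Plxna2, chr8:67244068-67244367 (plus) for Sema7a, chr18:42358491-42358790 (minus) for Sema6a and chr3:132337106-132337405 (plus) for Sema6d. Capitals mark the GC box GGGCGG on either strand (CCGCCC when read on the other).
Plxna2: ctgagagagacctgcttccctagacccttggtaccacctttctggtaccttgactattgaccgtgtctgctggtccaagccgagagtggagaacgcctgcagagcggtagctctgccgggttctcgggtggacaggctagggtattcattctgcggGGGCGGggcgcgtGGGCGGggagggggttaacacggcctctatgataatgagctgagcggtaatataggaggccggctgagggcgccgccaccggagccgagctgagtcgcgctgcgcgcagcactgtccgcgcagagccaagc
Sema7a: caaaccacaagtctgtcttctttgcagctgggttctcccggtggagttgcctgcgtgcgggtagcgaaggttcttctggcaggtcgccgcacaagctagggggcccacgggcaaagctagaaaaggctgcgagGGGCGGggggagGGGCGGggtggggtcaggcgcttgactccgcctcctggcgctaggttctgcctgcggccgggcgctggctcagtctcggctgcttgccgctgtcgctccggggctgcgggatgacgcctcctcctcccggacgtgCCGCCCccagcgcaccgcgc
Sema6a: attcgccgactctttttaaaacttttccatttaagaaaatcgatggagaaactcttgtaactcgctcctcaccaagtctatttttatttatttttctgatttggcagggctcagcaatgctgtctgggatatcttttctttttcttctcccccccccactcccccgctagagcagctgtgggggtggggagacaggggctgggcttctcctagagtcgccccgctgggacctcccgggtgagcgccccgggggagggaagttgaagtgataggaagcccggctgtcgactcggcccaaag
Sema6d: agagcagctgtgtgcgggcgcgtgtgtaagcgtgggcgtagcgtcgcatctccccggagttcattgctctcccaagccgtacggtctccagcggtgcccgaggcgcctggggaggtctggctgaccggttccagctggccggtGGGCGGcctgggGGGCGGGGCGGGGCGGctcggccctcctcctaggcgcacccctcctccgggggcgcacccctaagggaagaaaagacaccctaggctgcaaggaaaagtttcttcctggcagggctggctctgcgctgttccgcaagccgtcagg
Of the 31 genes, 23 had such a sequence. A GC box was present in 13 of these 23, against 33.1% of all 33469 promoters in the table. The windows of these genes were also richer in G and C, and the GC box counts are not adjusted for this. Their median GC content was 58.0% for genes higher in CR, 64.8% for genes lower and 64.0% for genes that did not pass, against 51.7% for all promoters. The box stood in 3 of 5 promoters of genes that were higher in CR and in 5 of 8 of genes that were lower, so its presence did not go with 1 direction. The TATA box TATAAA, searched on both strands, was in none of the 23 windows and in 14.2% of all promoters. This comparison is not adjusted for GC content either. The E-box CANNTG, which basic helix-loop-helix factors of neurons bind, was in 16 of 23 against 72.1% of all.

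Among these genes the class A plexins Plxna2 and Plxna4 were lower in CR, with the semaphorins Sema7a, Sema3c and Sema4c next, and the transmembrane ligands Sema5a, Sema6a and Sema6d led the increases. Of the 31 genes, 29 were abundant enough to be tested. Passing genes were 7 higher and 10 lower in CR, and the remaining 12 did not pass. Over all genes tested 33.9% passed, 17.7% as higher and 16.2% as lower, and among these 29 the share was 58.6%. These 29 averaged 1.74 to 27.6 FPKM, whereas the genes tested reach down to 0.5 FPKM. With the filter at 2 FPKM, 4801 of 11922 genes passed, and 6 family genes were higher and 10 lower. That filter left Sema3d (mean 1.79 FPKM) and Sema3g (1.74 FPKM) untested, and Sema3g was among the 7 higher genes of the main fit. The median log2 fold change was -0.04 for the 29 genes and 0.01 for all genes tested, and the median absolute one was 0.31 against 0.20, so changes in the family ran both ways. In 19 of the 29 genes the groups did not overlap (7 with CR above control and 12 with CR below), against 50.3% of all genes tested (26.1% above and 24.3% below). By kind, 6 of 19 semaphorins were higher and 5 lower, 1 of 8 plexins was higher and 4 lower, and of the 2 neuropilins 1 was lower. The counts leaned on single CR libraries, and so did those over all genes. Without CR replicate 2 the family had 3 higher and 4 lower, while the count over all genes fell from 5173 to 3210. Without CR replicate 3 the family had 3 higher and 9 lower, and 3308 of all genes passed. Calls for 7 genes (Plxna2, Plxna4, Sema3c, Sema4c, Sema5a, Sema6a and Sema6d) held whichever library was left out and under every other alternative run that tested them.

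**Figure D1:**
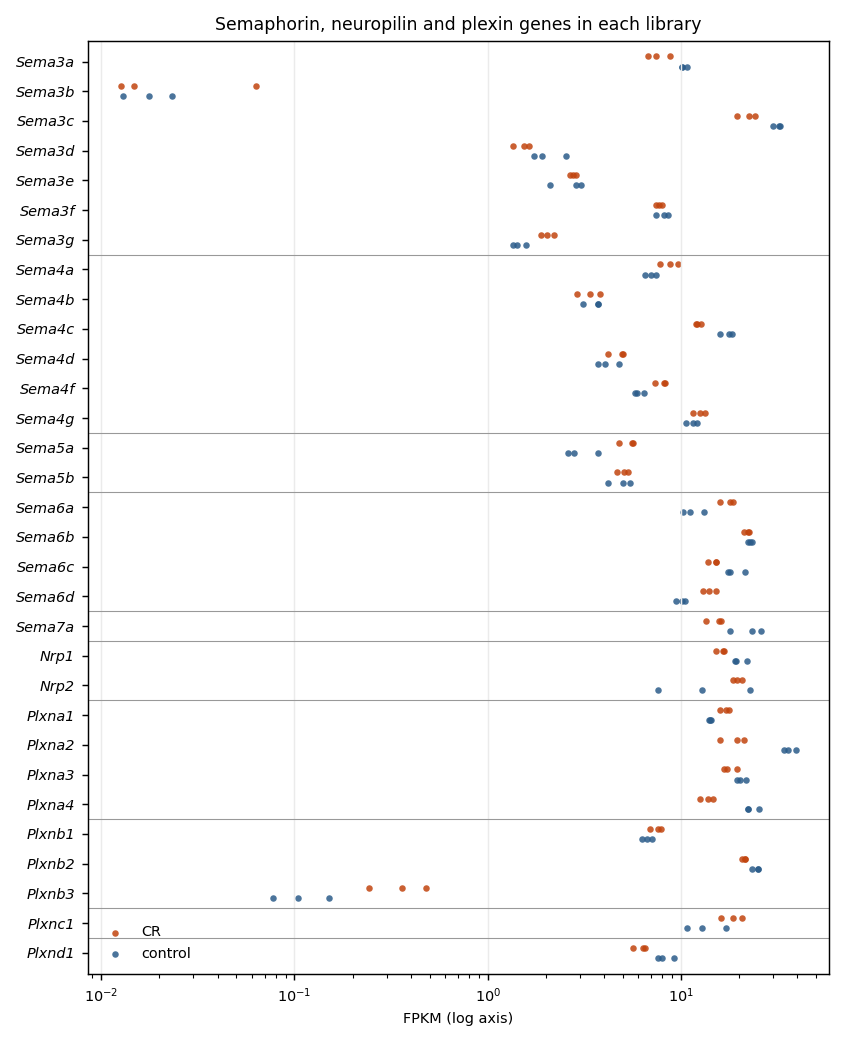
FPKM of the 31 genes in each library on a log axis, with CR libraries above control libraries in each row and 1 point per library (n = 3 per group). Plxna2 and Plxna4 show the widest gap with CR on the left, and Sema3b and Plxnb3 lie below 0.5 FPKM in every library.

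The groups also differed in marker genes of brain regions and cell types, and this touches every difference below. Markers of the dorsal telencephalon, from which the cortex arises, summed to 188 to 286 FPKM in CR and to 490 to 600 FPKM in control, with 9 of 10 markers below control in every CR library and none at 0. Ventral telencephalic markers summed to 115 to 121 FPKM in CR and to 155 to 192 FPKM in control, with 10 of 14 below control in every CR library and 3 (Lhx8, Nkx2-1 and Foxp2) above. Thalamic markers (4 of 4 above control) summed to 74.3 to 110 FPKM in CR and to 3.23 to 19.5 FPKM in control. Midbrain markers (11 of 11 above) summed to 32.8 to 41.0 FPKM in CR and to 0.778 to 1.49 FPKM in control, where Pou4f2 and Pax7 were at 0 although the libraries are labelled whole brain. Cerebellar markers (8 of 8 above) summed to 110 to 134 FPKM in CR and to 39.2 to 63.1 FPKM in control. Zic1, Zic2, Calb1 and Cbln1 carried the control sum. Hypothalamic markers were above control in 11 of 13 genes, although their sum, 182 to 197 FPKM in CR and 168 to 277 FPKM in control, was carried by Npy, which cortical interneurons also express. Hindbrain and cord markers were above control in 14 of 16 genes and summed to 22.5, 20.1 and 69.6 FPKM in CR replicates 1 to 3 and to 9.22 to 13.7 FPKM in control, where 6 Hox genes were at 0. Astrocyte markers (7 of 8 above) summed to 167 to 194 FPKM in CR and to 85.7 to 119 FPKM in control. Microglial markers (6 of 8 above) summed to 45.2 to 52.0 FPKM in CR and to 27.1 to 36.2 FPKM in control, and none of either list was at 0 in any library. General neuronal markers summed to 2810 to 2870 FPKM in CR and to 2720 to 3040 FPKM in control, with 2 of 6 above and 2 of 6 below. In whole-tissue RNA fewer cells of a type and less RNA per cell cannot be told apart, and the part of tissue composition in the differences below cannot be told apart from that of feeding.

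Among the 29 tested genes the class A receptors Plxna2 and Plxna4 had the largest log2 fold changes in size. Plxna2, a receptor for Sema6a and, with neuropilins, for class 3 ligands (ENSRNOG00000007324, mRatBN7.2 chromosome 13 from 106163103 to 106358979), had 19.4, 15.9 and 21.2 FPKM in CR replicates 1 to 3, against 35.7, 39.2 and 34.2 FPKM in control replicates 1 to 3. Every CR library lay below every control library. With 18.8 ± 2.7 FPKM in CR and 36.4 ± 2.57 FPKM in control, the log2 fold change was -0.92 (SE 0.103, limma adjusted p = 0.00118), from 4180 to 10145 reads per library. Plxna4, which binds class 6 ligands directly and Sema3a through Nrp1 (ENSRNOG00000013072, chromosome 4 from 60720255 to 61162206), had 13.8, 12.5 and 14.7 FPKM in CR, against 22.2, 25.4 and 22.1 FPKM in control. Again no CR value reached a control value, and the log2 fold change was -0.72 (SE 0.0787, adjusted p = 0.00108).

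Of the other class A plexins, Plxna1 was higher in CR and Plxna3 did not pass. Plxna1, a receptor for Sema6d, had 15.9, 17.7 and 17.0 FPKM in CR, against 14.1, 14.3 and 13.9 FPKM in control, a rise in every CR library of 0.24 on the log2 scale (SE 0.0578, adjusted p = 0.0161). Leaving out CR replicate 2 (adjusted p = 0.0659) or CR replicate 3 (0.0634) ended that call. Plxna1 shares 868 nt of its 12067 nt of exon with Chchd6 on the same strand, and Chchd6 averaged 4.17 FPKM in CR and 2.46 FPKM in control. Reads of the shared part may not be told apart. For Plxna3, the receptor through which Sema3f acts with Nrp2, values were 17.2, 16.7 and 19.4 FPKM in CR, against 21.6, 20.3 and 19.6 FPKM in control. All CR values were below all control values by a small gap, and the log2 fold change of -0.20 (95% interval -0.36 to -0.04) did not pass (adjusted p = 0.0633), although it passed with median-ratio size factors (0.0377), with limma-voom (0.0336) and without CR replicate 3 (0.0399).

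Together the class A plexins summed to 66.2, 62.8 and 72.3 FPKM in CR, against 93.5, 99.3 and 89.8 FPKM in control. Their makeup differed as well. Plxna2 held 25.3% to 29.4% of the sum in CR and 38.1% to 39.5% in control, and Plxna1 held 23.6% to 28.2% in CR and 14.4% to 15.5% in control. In control Plxna2 was thus the leading class A plexin by a wide margin in each library. In CR the 4 genes lay closer together, and in CR replicate 2 Plxna1 and Plxna3 stood above Plxna2. These shares are descriptions without a test. The same CR libraries held lower dorsal telencephalic marker sums, given above, and the part of those in this difference was not tested.

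**Figure D2:**
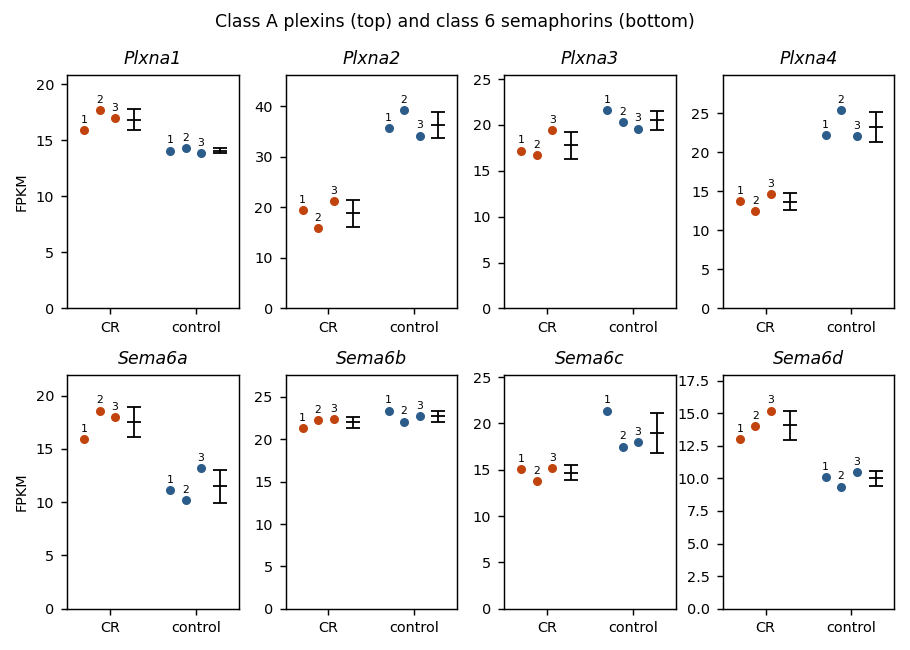
FPKM of the class A plexins (top row) and class 6 semaphorins (bottom row), with 1 point per library labelled by replicate number and the mean ± SD beside them (n = 3 per group). Plxna2 and Plxna4 are lower in all CR libraries, and Sema6a and Sema6d are higher in all of them.

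Class 6 semaphorins are the transmembrane ligands of these receptors, and 2 of them were higher in CR, 1 was lower and 1 did not pass. Sema6a, which binds Plxna2 and Plxna4 (ENSRNOG00000004033, chromosome 18 from 40050624 to 40171954), had 15.9, 18.6 and 18.0 FPKM in CR, against 11.1, 10.2 and 13.2 FPKM in control. All CR libraries lay above all control libraries, with a log2 fold change of 0.57 (SE 0.0988, adjusted p = 0.00501). Sema6d, a ligand of Plxna1 (ENSRNOG00000004812, chromosome 3 from 111883872 to 111941094), had 13, 14.0 and 15.2 FPKM in CR, against 10.1, 9.37 and 10.5 FPKM in control. The groups did not overlap, and the log2 fold change was 0.45 (SE 0.0757, adjusted p = 0.00428). The start regions of both ligands are printed above. That of Sema6d held 4 GC boxes, of which 3 overlap and 1 stands apart, and that of Sema6a none, so genes that rose together did not share this element in these windows.

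Sema6c moved the other way. It had 15.1, 13.8 and 15.2 FPKM in CR, against 21.4, 17.5 and 18.0 FPKM in control, with no overlap. Its log2 fold change was -0.34 (SE 0.0838, adjusted p = 0.0179), and the call was lost without CR replicate 2 (0.0683). Sema6b, the most abundant ligand of class 6 in every library, averaged 22.0 ± 0.610 FPKM in CR and 22.7 ± 0.630 FPKM in control, and its log2 fold change of -0.04 had an interval from -0.16 to 0.07. The summed class 6 level was 65.3 to 70.8 FPKM in CR and 59.2 to 65.9 FPKM in control, so the ranges of the sums met while single genes moved apart.

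Secreted semaphorins of class 3 included 2 genes that were lower, 1 that was higher and 3 that did not pass, with Sema3b untested. Sema3c, which binds both neuropilins and attracts callosal axons in the mouse (ENSRNOG00000006526, chromosome 4 from 17583212 to 17746534), was the most abundant. It had 22.5, 19.5 and 24.2 FPKM in CR, against 32.6, 32.0 and 29.9 FPKM in control. The highest CR value was well under the lowest control value, with a log2 fold change of -0.50 (SE 0.0817, adjusted p = 0.00401). Sema3a, the growth cone collapsing ligand of Nrp1, had 7.43, 6.74 and 8.74 FPKM in CR, against 10.1, 10.7 and 10.1 FPKM in control. The groups were apart and the log2 fold change was -0.39 (SE 0.0924, adjusted p = 0.0151), though without CR replicate 2 the adjusted p was 0.0505.

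Sema3g, a ligand of Nrp2 made by blood vessels, was higher at a low level, with 2.02, 2.21 and 1.88 FPKM in CR, against 1.42, 1.35 and 1.57 FPKM in control. Its call (log2 fold change 0.31, SE 0.0985, adjusted p = 0.0445) rested on 72 to 206 reads per library. It was lost when any library other than control replicate 3 was left out (adjusted p 0.0831 to 0.152), with no filter on low values (0.0783), with quantile normalization (0.157), with median-ratio size factors (0.0504) and with the replicate number as a block (0.102). Endothelial markers summed to 38.9 to 45.4 FPKM in CR and to 33.4 to 41.3 FPKM in control (8 of 10 found, none above control in every CR library), and their part in the Sema3g result was not tested.

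Sema3d had 1.63, 1.35 and 1.54 FPKM in CR, against 2.55, 1.90 and 1.74 FPKM in control. Its groups did not overlap, but control replicate 1 lay far above the other controls and the log2 fold change of -0.28 (interval -0.58 to 0.01) did not pass (adjusted p = 0.121), except with quantile normalization (0.0368). Sema3e, the ligand that Plxnd1 binds without a neuropilin, averaged 2.76 ± 0.111 FPKM in CR and 2.67 ± 0.492 FPKM in control, with a log2 fold change of 0.05 (interval -0.23 to 0.32). Sema3f, the preferred ligand of Nrp2, averaged 7.69 ± 0.288 FPKM in CR and 8.04 ± 0.560 FPKM in control, with a log2 fold change of -0.05 (interval -0.23 to 0.12). For Sema3b the libraries held 1 to 5 reads each, at or near the floor of 3 reads, and 2743 nt of its 3059 nt of exon are shared with Lsmem2 on the same strand, so no level is given for it.

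Of the neuropilins, Nrp1 was lower in CR and Nrp2 did not pass. Nrp1, which carries Sema3a and also binds the vascular growth factor VEGF (ENSRNOG00000010744, chromosome 19 from 56359455 to 56513633), had 16.6, 15.2 and 16.4 FPKM in CR, against 19.3, 19.1 and 22.0 FPKM in control. No CR value reached a control value, with a log2 fold change of -0.31 (SE 0.0708, adjusted p = 0.0141), lost without CR replicate 2 (0.0561). Nrp2, which carries Sema3c, Sema3f and Sema3g, had 18.6, 19.5 and 20.7 FPKM in CR, against 12.8, 7.64 and 22.7 FPKM in control. The CR libraries agreed closely while the controls spread about them on both sides.

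The coefficient of variation of Nrp2 was 5.50% in CR and 53.2% in control, and 95.5% of genes tested varied less than that among the controls. Its log2 fold change of 0.54 (interval -0.18 to 1.26) did not pass (adjusted p = 0.216). Without control replicate 3 it was 0.91 with an adjusted p of 0.0111. Among the controls, Plxnc1, Plxnb3, Nrp1, Sema3g, Sema4d, Sema5a, Sema6a and Sema6d were also highest in control replicate 3 and lowest in control replicate 2. Over all genes higher in CR, control replicate 3 was the highest control in 48.3% and control replicate 2 the lowest in 51.0%. In control replicates 1 to 3, astrocyte markers summed to 108, 85.7 and 119 FPKM and microglial markers to 33.9, 27.1 and 36.2 FPKM. Cerebellar markers summed to 51.7, 39.2 and 63.1 FPKM there, carried by Zic1, Zic2, Calb1 and Cbln1. The cerebellar markers Barhl1, Atoh1 and Pax2 averaged only 0.0697, 0.0264 and 0.0325 FPKM in control. Meningeal fibroblast markers, 2 of 8 above control in every CR library, summed to 252, 196 and 251 FPKM in control replicates 1 to 3. In CR they summed to 258 to 290 FPKM. Igfbp2 carried these sums. Each marker of that list was lowest in control replicate 2 among the controls. Col1a1 had 16.6, 10.5 and 21.2 FPKM in control replicates 1 to 3, whereas Foxc1 and Igfbp2 were highest in control replicate 1. The part of these marker differences in the spread of Nrp2 was not tested.

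**Figure D3:**
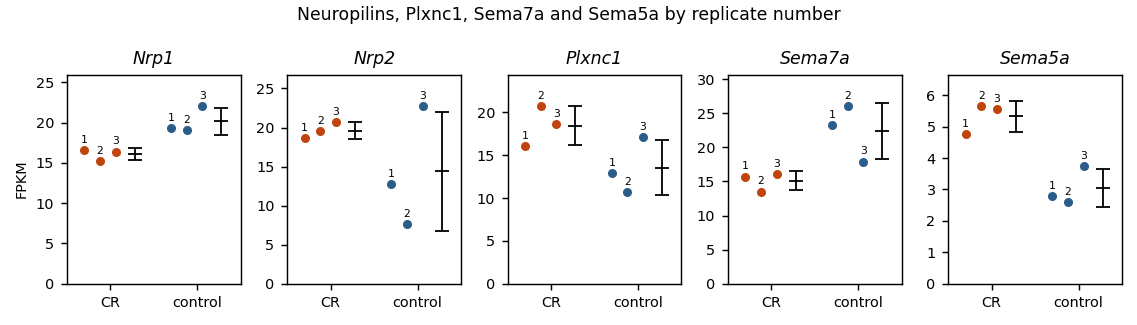
FPKM of the neuropilins, Plxnc1, Sema7a and Sema5a, with 1 point per library labelled by replicate number and the mean ± SD beside them (n = 3 per group). In control, Nrp2 runs from 7.64 to 22.7 FPKM, and control replicate 3 is the highest control for Nrp2, Plxnc1 and Sema5a and the lowest for Sema7a.

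Sema7a was lower in CR, and its receptor Plxnc1 did not pass. Sema7a, a lipid-anchored ligand that also binds integrin beta-1 (ENSRNOG00000007687, chromosome 8 from 58348448 to 58370536), had 15.7, 13.5 and 16.1 FPKM in CR, against 23.3, 26.0 and 17.9 FPKM in control. All CR values were below all control values, although control replicate 3 came near them. The log2 fold change was -0.53 (SE 0.130, adjusted p = 0.0183), lost without CR replicate 2 (0.0681) and without control replicate 1 (0.0522). Plxnc1 had 16.1, 20.7 and 18.6 FPKM in CR, against 12.9, 10.7 and 17.1 FPKM in control. Control replicate 3 overlapped the CR values, and the log2 fold change of 0.43 (interval 0.06 to 0.80) did not pass (adjusted p = 0.0707). Without control replicate 3 it was 0.60 (adjusted p = 0.0106), and limma-voom gave 0.48 (adjusted p = 0.0241).

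Class 5 and class 4 ligands followed. Sema5a, a large transmembrane protein with thrombospondin repeats (ENSRNOG00000011977, chromosome 2 from 83309843 to 83741084), had 4.77, 5.64 and 5.56 FPKM in CR, against 2.80, 2.60 and 3.73 FPKM in control. Its CR values were all above control, and its log2 fold change of 0.65 (SE 0.124, adjusted p = 0.00671) was the highest of the 29. Its relative Sema5b averaged 5.02 ± 0.316 FPKM in CR and 4.88 ± 0.653 FPKM in control, a log2 fold change of 0.04 (interval -0.20 to 0.28).

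In class 4, Sema4c, a ligand of Plxnb2 (ENSRNOG00000016254, chromosome 9 from 38791670 to 38802128), had 12.7, 12.1 and 11.9 FPKM in CR, against 17.7, 18.3 and 16 FPKM in control. The gap between the groups was larger than the range within either, with a log2 fold change of -0.47 (SE 0.0653, adjusted p = 0.00225). Sema4f had 7.31, 8.23 and 8.20 FPKM in CR, against 5.75, 5.89 and 6.43 FPKM in control (log2 fold change 0.34, SE 0.0782, adjusted p = 0.0136). Sema4a had 7.77, 8.74 and 9.68 FPKM in CR, against 6.51, 7.02 and 7.44 FPKM in control (log2 fold change 0.28, SE 0.0915, adjusted p = 0.0480).

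Both were above control in every CR library, yet the Sema4f call was lost without CR replicate 2 (0.0578) and without CR replicate 3 (0.0600). That of Sema4a was lost in 4 of 6 fits that left out a library (up to 0.163), with no filter on low values (0.0823), with median-ratio size factors (0.0716) and without the trend (0.0560). Sema4b, Sema4d and Sema4g overlapped between the groups, with log2 fold changes of -0.06 (interval -0.31 to 0.20), 0.15 (-0.10 to 0.40) and 0.11 (-0.06 to 0.29). Sema4d, the ligand of Plxnb1 that oligodendrocytes and immune cells carry, averaged 4.73 ± 0.459 FPKM in CR and 4.17 ± 0.531 FPKM in control.

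**Figure D4:**
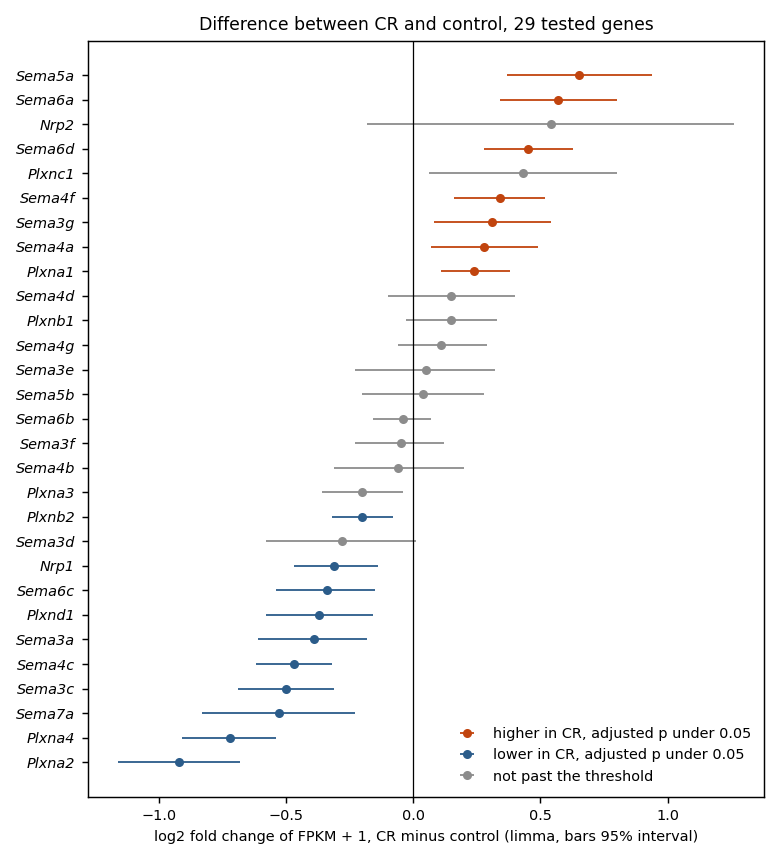
Log2 fold change of FPKM + 1, CR minus control, for the 29 tested genes with 95% intervals from limma (n = 3 libraries per group). Sema5a at 0.65 and Plxna2 at -0.92 mark the ends, and genes of the same class stand on both sides of 0.

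Receptors of the other plexin classes were lower or did not pass. Plxnb2, the most abundant class B plexin, had 21.4, 20.6 and 21.4 FPKM in CR, against 25.0, 25.0 and 23.3 FPKM in control. The groups were apart, but the log2 fold change was small (-0.20, SE 0.0517, adjusted p = 0.0218) and the call held in 1 of 6 fits that left out a library (the others 0.0515 to 0.0814) and was lost with the replicate number as a block (0.0524). Plxnb1 averaged 7.48 ± 0.489 FPKM in CR and 6.66 ± 0.384 FPKM in control, with a log2 fold change of 0.15 (interval -0.03 to 0.33). Plxnd1, the receptor of Sema3e on vessels and some neurons, had 6.52, 5.65 and 6.32 FPKM in CR, against 7.59, 8.01 and 9.18 FPKM in control. It was lower in every CR library, with a log2 fold change of -0.37 (SE 0.0901, adjusted p = 0.0177), lost without CR replicate 2 (0.0676) and without CR replicate 3 (0.0512). The endothelial marker sums given beside Sema3g overlapped between the groups.

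Plxnb3, a plexin of oligodendrocytes, lay under the filter. It had 0.242, 0.361 and 0.482 FPKM in CR, against 0.104, 0.0771 and 0.150 FPKM in control, from 9 to 76 reads per library. All CR values were above all control values, a 3.27-fold ratio of means, and with no filter on low values the log2 fold change was 0.29 (adjusted p = 0.0385). Markers of oligodendrocyte precursors (6 of 8 above control in every CR library) summed to 57.9 to 66.2 FPKM in CR and to 43.6 to 48.6 FPKM in control. Those of myelinating cells (5 of 8 above) summed to 49.5 to 59.1 FPKM in CR and to 35.7 to 47.4 FPKM in control, where Mobp was at 0, and their part in the Plxnb3 values was not tested.

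Single libraries took a regular place among the changed genes. CR replicate 2 had the lowest CR value in 9 of the 10 genes that were lower (all but Sema4c), against 50.5% of all genes lower in CR. Its dorsal telencephalic marker sum, 188 FPKM, was also the lowest of the CR libraries, where CR replicate 1 had 286 FPKM and CR replicate 3 had 244 FPKM. CR replicate 1 had the lowest CR value in 6 of the 7 genes that were higher, against 63.8% of all genes higher in CR. Control replicate 3 had the highest control value in the same number, 6 of 7, against 48.3%. CR replicate 3, which stood apart in hindbrain and cord markers, was the highest CR library in 2 of those 7 genes.

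Genes that act with or after plexins were examined through a list of 68 symbols, of which 62 were tested. Passing genes were 4 higher and 19 lower in CR with 39 not passing, a share of 37.1% beside 33.9% of all genes tested, and the median log2 fold change was -0.04. Without CR replicate 2 the lower count was 10, while the count over all genes fell from 5173 to 3210. Of 10 collapsin response mediator and MICAL genes, whose products link plexins to microtubules and actin, 5 were lower and none higher, a share of 50% beside the same 33.9%. The actin-oxidising enzyme gene Mical1 averaged 5.58 ± 0.656 FPKM in CR and 8.83 ± 1.19 FPKM in control (log2 fold change -0.58, SE 0.113, adjusted p = 0.00763). Mical2 (-0.36), Mical3 (-0.25), Dpysl5 (-0.22) and Crmp1 (-0.22) were the others, of which Crmp1 held in every fit that left out a library while Mical2, Mical3 and Dpysl5 did not hold in all of them.

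Among 21 GTPases and their regulators 2 were higher and 7 lower, a share of 42.9% beside 33.9% of all genes tested. Rnd1, a GTPase that binds the intracellular part of plexins, had 13.8, 12.9 and 12.6 FPKM in CR, against 19.8, 20.4 and 18.2 FPKM in control (log2 fold change -0.53, SE 0.0648, adjusted p = 0.00151). Its relative Rnd2, which acts in the migration of cortical neurons, had 71.7, 75.4 and 71.2 FPKM in CR, against 47.7, 40.1 and 50.6 FPKM in control (0.65, SE 0.0831, adjusted p = 0.00171). The pair moved in opposite directions without overlap. Rras was higher by 0.47 and its relative Rras2 lower by a log2 fold change of -0.51, and the regulators Rasa1 (-0.46) and Trio (-0.37) were lower.

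Of 16 tested co-receptors and adhesion partners 1 was higher and 2 were lower, a share of 18.8% beside 33.9% of all genes tested. Met, the receptor tyrosine kinase of hepatocyte growth factor that associates with class B plexins, had 2.82, 2.05 and 2.42 FPKM in CR, against 5.24, 6.64 and 5.23 FPKM in control. All CR values were below all control values (log2 fold change -0.96, SE 0.123, adjusted p = 0.00174). The axonal adhesion gene Cntn2 was lower (-0.62), and Sdc3, a heparan sulfate proteoglycan, was higher (0.58). Of 15 tested kinases and cytoskeletal effectors 1 was higher, Limk2 (0.30), and 5 were lower, led by Pak2 (-0.41), the Cdk5 activator Cdk5r1 (-0.37), Ptk2 (-0.32) and Rock2 (-0.26), a share of 40.0% beside the same 33.9%. The calls for Ptk2 and Rock2 did not hold in every fit that left out a library. The dorsal telencephalic marker sums were lower in the same libraries, and their part in these counts was not tested.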

How the data were processed

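Polyadenylated RNA of 6 whole-brain libraries was measured (3 CR, 3 control). The authors deposited 1 FPKM value for each Ensembl gene and library. Per the submitters' processing notes the tools included featureCounts 2.0.1, STAR 2.7.10a, Trim Galore 0.4.4, cutadapt 1.16 and Trimmomatic 0.36, and the build was mRatBN7.2; roles, settings and the strand setting of the counting are not given in the sources used here. Coordinates of genes are those of the deposited tables. FPKM times exon length fell on whole multiples of 1 step (100% of values within 0.05), which gave the reads behind each value.

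Genes averaging 0.5 FPKM or more were fitted with limma 3.58.1 (R 4.3.3) on log2(FPKM + 1), group as the only term, with a trend on the mean, two-sided, Benjamini-Hochberg over all 15247 genes. The floor of 3 reads covers counting error only. The 95% intervals are from the limma fit and so from the spread between libraries. Libraries of a group differed, with chi-square values averaging 6.63 to 15.6 (genes with at least 50 reads in the pair), so none was counted as a repeat. Members, marker lists, partner list and tests were chosen with earlier results of these data known. All members are named; of each partner sublist up to 4 genes per direction with the largest log2 fold change past the threshold are named, and Crmp1 was added after its values were seen. Alternatives were pseudocounts of 0.1 and 0.5, quantile normalization, median-ratio size factors, no trend, no filter, a filter at 2 FPKM, the replicate number as a block, leaving out each library and, added after the data were seen, limma-voom on those recovered reads. Promoter sequences are from RefSeq (GRCr8) and were matched by symbol.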

Additional observations from a re-analysis of the deposited data

How the results depend on the processing

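Of 433 log2 fold changes of the 29 tested genes under the alternatives, 389 kept their direction and their side of the threshold, 33 (of 10 genes) fell short of it, 7 (of 4 genes) newly passed it and 4 changed sign without passing in either fit. The 4 were Sema3e with quantile normalization (-0.03) and without control replicate 3 (-0.07), Sema4b without CR replicate 1 (0.02) and Sema5b without control replicate 2 (-0.05); over fits that left out 1 library Sema3e ran between -0.07 and 0.12, Sema4b between -0.13 and 0.02, and Sema5b between -0.05 and 0.11. Leaving out 1 library gave 3 to 9 higher and 4 to 10 lower genes of the family (7 and 10 with all libraries), 4 to 6 higher and 10 to 16 lower partner genes (4 and 19) and 3210 to 5042 genes overall (5173). The lowest counts of the family came without CR replicate 2, and 3 higher genes also without CR replicate 3. The 3 higher and 4 lower genes called without CR replicate 2 were all among the 17. The other alternatives gave 5 to 8 higher and 9 to 11 lower genes of the family.

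Same-numbered libraries of the groups deviated together only weakly (correlations of 0.0245, 0.0198 and 0.0454 over genes tested), under 0.1, so the numbers were not taken as pairs, although each library correlated best with its own number. With the replicate block 4445 genes passed, 6 family genes were higher and 9 lower, and 4 partner genes were higher and 16 lower. The planned count test was not run because the deposited unit is FPKM. No scaling moved the median log2 fold change of all genes by over 0.1. A level of 3 reads per library, 0.117 to 0.214 FPKM for a gene of 1 kb, limits what can be said of Sema3b.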
